A study of Mus musculus with 2 samples.

Results

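The lipid carrier, uptake and droplet genes of macrophages in mouse pancreatic islets were described as a set of 10 genes. They were chosen by symbol, and all 10 were present among the 31053 genes of both libraries. Apoe, Abca1 and Abcg1 were the carrier and exporter genes, Cd36, Lpl and Trem2 the uptake genes, Plin2 and Fabp5 the droplet and intracellular carrier genes, and Nr1h3 and Pparg the nuclear receptor genes. Single immune cells came from islets of C57BL/6J male mice fed chow, 6 to 8 mice to a pool, sorted as live cells that carried CD45 and lacked Epcam. The pools carried time labels of 1 week and 12 weeks, with no word on the event the weeks are counted from. Both groups share strain, sex, diet and sort, no allele or drug is given, and each is 1 library, so values at the 2 times were set side by side without a test. Macrophages were taken as cells with at least 5 unique molecular identifiers (UMIs, counted transcript molecules) of C1qa, C1qb and C1qc together. They numbered 1243 of 1340 kept cells at 1 week and 1620 of 1752 at 12 weeks.

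Apolipoprotein E is a secreted protein that carries cholesterol and phospholipid between cells, and macrophages are a known source of it outside the liver. Abca1 and Abcg1 encode membrane pumps that load cholesterol onto lipoprotein particles. Cd36 encodes a scavenger receptor for fatty acids and oxidised lipoproteins, Lpl the lipase that frees fatty acids from triglyceride-rich particles, and Trem2 a surface receptor that binds lipids and apolipoproteins and signals through Tyrobp. Plin2 coats lipid droplets, and Fabp5 binds fatty acids inside the cell. Nr1h3 encodes the oxysterol receptor LXR alpha, for which Apoe, Abca1 and Abcg1 are textbook targets, and Pparg the fatty acid receptor PPAR gamma, for which Cd36, Plin2 and Lpl are textbook targets.

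The 250 bases before a transcription start were read for 7 of the 10 members, from RefSeq on build GRCm38.p6, taking the most upstream start that its promoter table lists. For Cd36 and Nr1h3 this start lies inside the gene as GENCODE draws it, at 17835896 where the gene begins at 17888801 and at 91195116 where it begins at 91202834, both on the minus strand. Their windows are therefore promoters of a downstream start, and the bases before the outermost start were not read. The Pparg start also lies inside its gene, at 115361144 where the gene begins at 115360951 on the plus strand. Its window begins at 115360894, so only part of the bases before the outermost start was read. Windows are shown for the pair of members whose counts went together best in single cells, Apoe and Trem2, and for an LXR and a PPAR target Abca1 and Cd36, whose counts correlated weakly. Capitals mark matches to the motifs described after the sequences. Apoe lies on the minus strand of chr7 and the window is chr7:19699189-19699438. The Trem2 window is chr17:48346151-48346400 on the plus strand. The Abca1 window is chr4:53159896-53160145 and the Cd36 window chr5:17835897-17836146, both on the minus strand.
Apoe: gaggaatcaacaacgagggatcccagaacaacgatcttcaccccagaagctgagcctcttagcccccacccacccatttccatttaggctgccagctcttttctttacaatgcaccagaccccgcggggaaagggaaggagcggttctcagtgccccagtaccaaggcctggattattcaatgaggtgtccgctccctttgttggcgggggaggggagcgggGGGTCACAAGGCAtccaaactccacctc
Trem2: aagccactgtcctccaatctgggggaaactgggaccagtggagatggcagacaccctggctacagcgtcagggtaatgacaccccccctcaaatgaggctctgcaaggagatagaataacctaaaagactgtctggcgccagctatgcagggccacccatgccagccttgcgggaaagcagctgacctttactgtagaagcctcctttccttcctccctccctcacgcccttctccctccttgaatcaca
Abca1: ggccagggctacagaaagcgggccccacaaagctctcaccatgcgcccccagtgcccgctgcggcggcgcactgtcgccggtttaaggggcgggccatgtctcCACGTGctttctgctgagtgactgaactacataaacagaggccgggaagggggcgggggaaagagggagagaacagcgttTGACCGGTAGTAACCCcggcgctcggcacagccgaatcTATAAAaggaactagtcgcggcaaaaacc
Cd36: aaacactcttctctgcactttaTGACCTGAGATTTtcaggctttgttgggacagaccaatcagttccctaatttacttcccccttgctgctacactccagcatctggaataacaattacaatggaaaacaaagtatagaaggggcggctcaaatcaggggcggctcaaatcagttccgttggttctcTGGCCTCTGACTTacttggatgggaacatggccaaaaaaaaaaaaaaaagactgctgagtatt

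The LXR element was searched as the half-site AGGTCA, any 4 bases and AGGTCA again, and the PPAR element as the same half-sites with 1 base between, on both strands with up to 3 mismatches in the half-sites. Abca1 held an LXR element match, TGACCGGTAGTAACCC, from 67 to 52 bases before its start, on the opposite strand. It also held the E-box CACGTG at 147 to 142 bases and the TATA box TATAAA at 29 to 24 bases before the start. Apoe held a PPAR element match, GGGTCACAAGGCA, at 28 to 16 bases and no LXR element match in this window. Cd36 held PPAR element matches at 228 to 216 and at 63 to 51 bases, and Plin2 held them at 225 to 213 and at 161 to 149 bases. None of the 4 motifs was found in the windows of Trem2, Nr1h3 and Pparg. Such matches are common at this tolerance: of 27026 windows of the same length, 18.5% held an LXR element match, 21.0% a PPAR element match, 6.04% the E-box and 13.0% the TATA box.

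The libraries held 1551 and 1867 barcodes with 12858754 and 12448628 UMIs, and macrophages had medians of 7401 and 6891 UMIs (5th percentiles 2086 and 2935) and 72 and 57 C1q UMIs. Of other macrophage markers, Lyz2 was detected in 94.1% and 95.1% of these cells, Csf1r in 89.5% and 90.6% and Adgre1 in 70.2% and 70.4%, while Mrc1 was detected in 12.4% and 14.9%. Cells near the gate were few, with 14 and 15 cells at 3 or 4 C1q UMIs and 25 and 18 at 5 to 9. Insulin and amylin transcripts exceeded 20% of UMIs in 5 and 1 macrophages. The libraries shared 3 barcodes, of which 2 were kept in both. Levels below are in CPM, the UMIs of a gene scaled to 1000000 UMIs in all, summed over macrophages, with 95% counting intervals. Shares of cells and correlations come from macrophages thinned to 4000 UMIs each (1006 and 1456 cells, with 237 and 164 shallower cells left out). Intervals cover counting error only.

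Apoe was among the most abundant transcripts of islet macrophages. It ranked 3rd of all genes at 1 week with 25602 CPM (25509 to 25695) and 4th at 12 weeks with 29307 (29208 to 29407), which was 2.56% and 2.93% of all macrophage UMIs. At equal depth a macrophage held 105.0 ± 62.9 Apoe UMIs (SD over 1006 cells) at 1 week and 119.2 ± 71.1 (SD over 1456 cells) at 12 weeks. Nearly every macrophage had it, 99.3% and 99.8% at equal depth and 99.7% and 99.9% before thinning. The level was nevertheless broad: the 5th and 95th percentiles stood at 16.3 and 229 UMIs at 1 week and at 21.8 and 251 at 12 weeks. Cells under 10 UMIs made up 3.08% and 1.79% of macrophages, and cells over 200 made up 7.85% and 13.3%. The excess of the variance over counting noise, divided by the squared mean, was 0.35 and 0.348, near the medians of 0.308 and 0.342 over all genes with a mean of at least 0.2 UMIs.

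**Figure D1:**
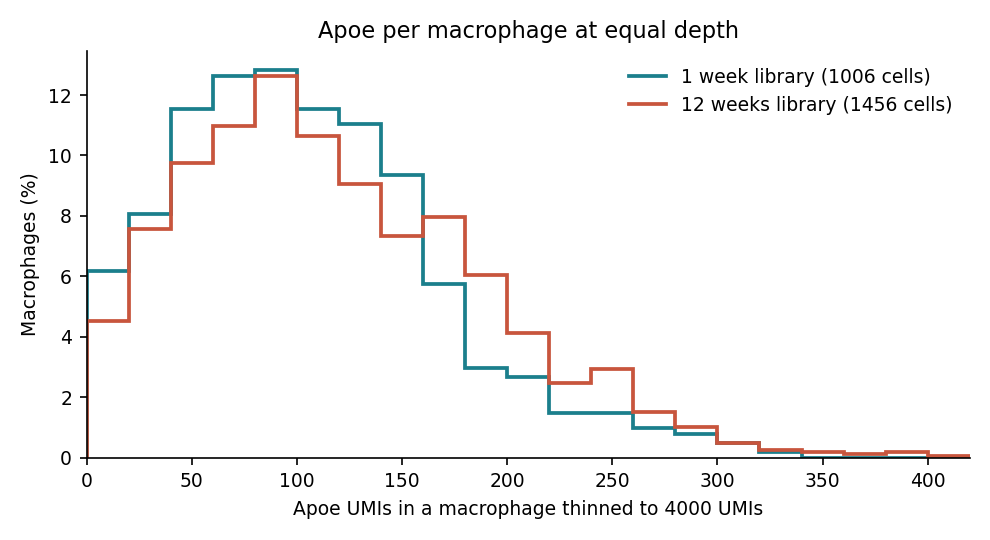
Share of macrophages (%) in each range of 20 Apoe UMIs, after every cell was thinned to 4000 UMIs, in the 1-week (1006 cells) and 12-week (1456 cells) libraries. Both distributions form 1 broad hump with medians of 97 and 107 UMIs and no separate group of cells without Apoe.

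The exporter genes were expressed at much lower counts. Abca1, which loads lipid onto apolipoproteins such as ApoE, had 185 CPM (177 to 193) at 1 week and 233 (224 to 242) at 12 weeks, and was detected in 45.9% and 52.6% of macrophages at equal depth (61.0% and 66.3% unthinned). Abcg1, which exports cholesterol to larger particles, had 102 (95.9 to 108) and 121 (115 to 128) CPM and was detected in 30.3% and 34.7% (47.8% and 47.7% unthinned). Both spread somewhat more than the median gene, with excess variances of 0.481 and 0.606 for Abca1 and 0.634 and 0.682 for Abcg1.

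The uptake genes separated by how evenly they were spread. Cd36 had 216 CPM (208 to 225) at 1 week and 237 (228 to 246) at 12 weeks. Trem2 had 212 (204 to 221) and 190 (182 to 198). Their intervals overlapped at 1 week and not at 12 weeks, where Cd36 overlapped Abca1 instead. Trem2 was detected in 46.9% and 44.5% of macrophages at equal depth (60.6% and 58.3% unthinned) and Cd36 in 43.2% and 41.7% (52.9% and 48.5% unthinned). The excess variance of Cd36, 1.76 and 1.85, was larger than that of Trem2, 0.941 and 0.795. Lpl was confined to fewer cells. It had 54.6 CPM (50.4 to 59.1) at 1 week and 26.3 (23.4 to 29.5) at 12 weeks, was detected in 13.9% and 7.69% of macrophages (23.3% and 10.4% unthinned) and had excess variances of 7.68 and 7.98. Of all Lpl UMIs, 50% lay in 58 macrophages (4.67%) at 1 week and in 38 (2.35%) at 12 weeks.

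Plin2, the droplet coat, was the second most abundant member at 306 CPM (296 to 316) and 426 (414 to 438). It was detected in 62.9% and 71.8% of macrophages at equal depth (75.3% and 83.4% unthinned) and had excess variances of 0.578 and 0.468, above the medians over all genes and near those of Abca1. Fabp5 was the least even member. It had 26.6 CPM (23.7 to 29.7) at 1 week and 55.4 (51.2 to 59.9) at 12 weeks, was detected in 6.56% and 11.2% of macrophages (11.1% and 15.3% unthinned) and had excess variances of 12.9 and 19.1. Of its UMIs, 50% lay in 26 macrophages (2.09%) and 40 macrophages (2.47%), and 1 thinned cell at 12 weeks held 22. The gene table also lists Fabp5l2, named as a like gene, so reads that match both genes could make Fabp5 values uncertain.

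The nuclear receptor genes were scarce. Pparg had 25.3 CPM (22.5 to 28.4) at 1 week and 45.2 (41.4 to 49.3) at 12 weeks and was detected in 10.2% and 16.9% of macrophages (18.2% and 23.3% unthinned). At 1 week its interval overlapped that of Fabp5. Nr1h3 had 6.66 (5.25 to 8.34) and 7.34 (5.86 to 9.09) CPM, from 76 and 84 UMIs in all, and was detected in 1.89% and 2.40% of macrophages (4.83% and 4.44% unthinned). At this depth single-cell patterns of Nr1h3 could not be read.

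Between the libraries, 3 of 10 members stood at a ratio of 1.5 or more. Fabp5 was 2.09 times (1.82 to 2.40) and Pparg 1.78 times (1.54 to 2.07) as high at 12 weeks as at 1 week, and Lpl was at 0.482 times (0.418 to 0.554). Over the 8331 genes with enough counts, 6.09% stood at 1.5 or more in the direction of 12 weeks and 8.46% in the direction of 1 week. Apoe (1.14), Cd36 (1.09), Trem2 (0.896), Abca1 (1.26), Abcg1 (1.19), Nr1h3 (1.10) and Plin2 (1.39) stood closer to 1. The median log2 ratio was 0.22 over the members and -0.06 over all genes compared. With 1 pool of mice at each label, differences between pools, sequencing and time cannot be told apart.

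**Figure D2:**
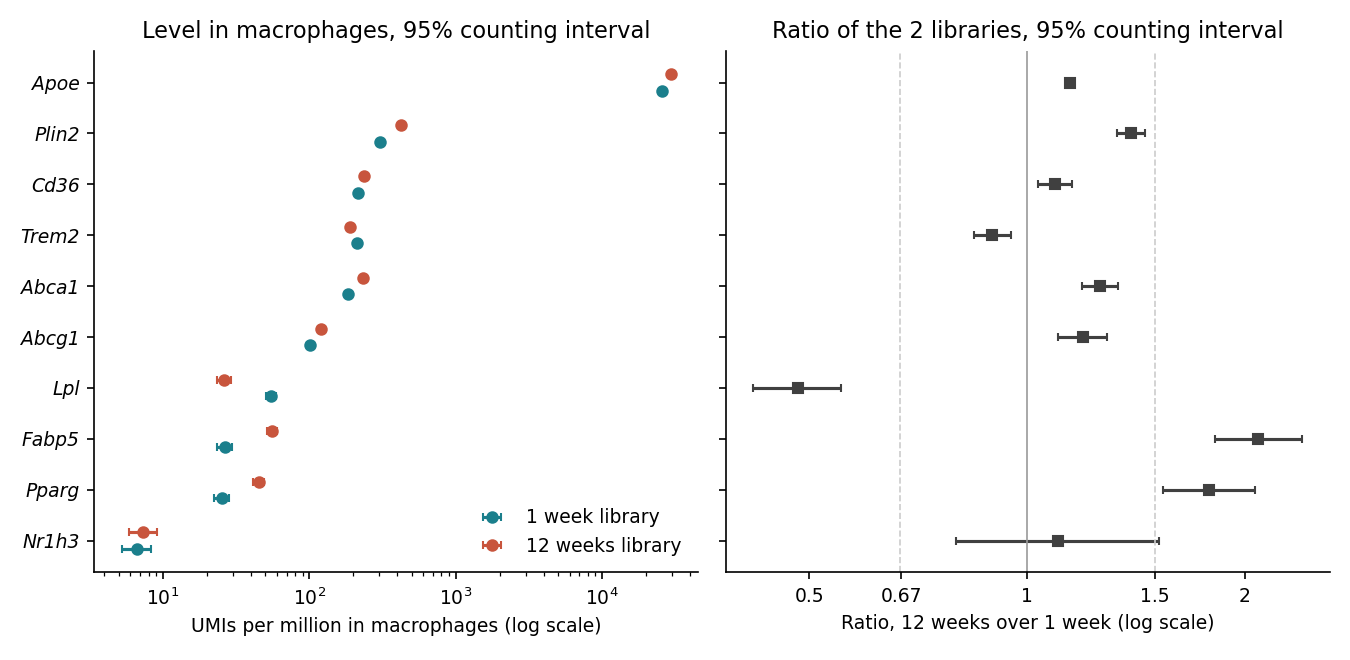
Left, CPM (log scale) of each member in macrophages of the 1-week and 12-week libraries; right, the ratio of 12 weeks over 1 week (log scale) with dashed lines at 1.5 times in either direction. Bars are 95% counting intervals, and only Fabp5, Pparg and Lpl lie beyond the dashed lines.

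Against cells with B cell markers, most members were higher in macrophages. The class comparison summed raw counts per library and tested macrophages minus B-like cells (29 and 30 cells with low C1q and at least 3 UMIs of B cell markers), the only other class with at least 15 cells in each library. By edgeR's quasi-likelihood test with Benjamini-Hochberg adjustment, 8 of 10 members were higher in macrophages and 0 lower, beside 12.9% higher and 4.14% lower of 10046 genes tested. Macrophages held 11406907 and 11441581 UMIs in all, and B-like cells 252246 and 119140. Plin2, Lpl, Cd36, Trem2, Pparg and Nr1h3 had 3 or fewer B-like UMIs over both libraries and met the count filter through macrophages. The test thus had little room to call these members lower. The median log2 difference was 4.80 over the members and 0.26 over all genes tested. The fit left 1 residual degree of freedom and used 1 spread for all genes, so its p-values rest on that spread.

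Apoe had 25602 and 29307 CPM in macrophages and 400 and 1267 in B-like cells at 1 and 12 weeks. Its log2 difference was 5.66 (SE 0.21, edgeR adjusted p 1.12e-154), and the 2 libraries gave ratios of 63.9 (52.6 to 78.5) and 23.1 (19.7 to 27.3). Plin2 had 306 and 426 CPM in macrophages against 7.93 and 8.39 in B-like cells, a log2 difference of 5.78 (SE 0.52, edgeR adjusted p 7.87e-27) and a ratio of 45.3 (15.5 to 220) on 3 B-like UMIs. Trem2 was found as 0 and 1 UMIs in B-like cells, which put macrophages at least 17.8-fold higher at 1 week against a limit of 3 UMIs. Cd36 was found as 2 and 0 UMIs there, at least 9.39-fold lower than in macrophages at 12 weeks. Their log2 differences were 6.53 (SE 0.68) for Trem2 and 5.72 (SE 0.59) for Cd36. Apoe, Plin2, Trem2 and Cd36 thus stood far below the macrophage level in B-like cells. For Cd36 this did not hold in dendritic-like cells at 1 week. It had 75.8 CPM there, on 8 UMIs, with macrophages 2.86 times as high (1.45 to 6.62). At 12 weeks it had 9.54 CPM in dendritic-like cells, on 2 UMIs, with macrophages 24.8 times as high (6.85 to 205).

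The exporters were less restricted. Abca1 had 185 and 233 CPM in macrophages and 23.8 and 118 in B-like cells, a log2 difference of 2.26 (SE 0.39, edgeR adjusted p 1.2e-07). The libraries differed in this: the log2 difference was 3.08 from the 1-week library alone and 1.66 from the 12-week library alone. Abcg1 had 102 and 121 CPM in macrophages and 63.4 and 75.5 in B-like cells, a log2 difference of 1.05 (SE 0.39, edgeR adjusted p 0.0411) and the smallest of those that passed. Lpl (log2 difference 2.72, SE 0.75, edgeR adjusted p 0.00261) and Pparg (3.94, SE 1.00, edgeR adjusted p 0.000986) passed on 3 and 1 B-like UMIs in both libraries together, with ratios of 5.01 (1.71 to 24.3) and 13.1 (2.34 to 518). Without the 12-week library the values were 2.79 for Pparg and 4.89 for Cd36, and without the 1-week library 5.16 for Trem2, each over 1.5 times from the joint value as a fold. Under DESeq2, Abcg1, Lpl and Pparg no longer passed (adjusted p 0.479, 0.190 and 0.169).

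Fabp5 did not pass the test against B-like cells. Its log2 difference was 1.16 (SE 0.57, edgeR adjusted p 0.177), and its B-like UMIs, 3 at 1 week and 5 at 12 weeks, each came from 1 cell. Dendritic-like cells had 246 and 138 Fabp5 CPM and T-like cells 70.7 and 171, against 26.6 and 55.4 in macrophages. The ratio of dendritic-like cells to macrophages was 9.27 at 1 week and 2.50 at 12 weeks, on 26 and 29 Fabp5 UMIs in 4 of 11 and 5 of 24 cells. A single cell held 22 of the 26 and another 14 of the 29, and without the top cell the ratios were 1.55 and 1.33. In T-like cells the ratios to macrophages were 2.66 and 3.08, and without the top cell 1.49 and 1.87. The higher Fabp5 level of dendritic-like cells thus rested largely on 1 cell in each library. Nr1h3 had 0 UMIs in B-like cells of both libraries, but the limit set by 3 UMIs (11.9 and 25.2 CPM) lay above its level in macrophages, so no ratio could be formed (edgeR adjusted p 0.191). With T-like (9 and 29 cells) and dendritic-like cells (11 and 24) added to the fit, 23.7% of 2975 genes were higher in macrophages and 9.14% lower, and 6 of 7 members tested were higher. The member that did not pass was Fabp5, with a log2 difference of -0.87 (SE 0.40, edgeR adjusted p 0.119), and Abcg1 stood at 0.95 (SE 0.27, edgeR adjusted p 0.0146). Where marker-positive cells with C1q were also let into the other classes, the dendritic-like class grew to 144 and 180 cells and 0 of 9 members tested passed (edgeR adjusted p 0.0801 to 0.152), with 9 at an unadjusted p under 0.05.

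Other genes of lipid handling, taken from 7 lists of 72 genes, followed the members in part. Of 57 tested against B-like cells, 27 were higher in macrophages and 4 lower, beside the 12.9% and 4.14% of all genes given above. Lysosomal lipid release had 7 of 8 higher, among them Lipa, the lysosomal acid lipase (237 and 308 CPM against 0 and 16.8), Psap, the saposin precursor (1917 and 1756 against 214 and 151), and Npc2, a lysosomal cholesterol carrier (1018 and 996 against 190 and 143). The genes of lipid-associated macrophages had 9 of 10 higher, led by Lgals3 (2334 and 2827 against 55.5 and 58.8). Several were also high in dendritic-like cells, with Lgals3 at 995 and 1704 CPM and Tyrobp at 995 and 1952 (macrophages 2364 and 2164). Cd9 was higher there, at 597 and 325 against 220 and 209. With T- and dendritic-like cells in the fit, 7 of 8 tested were higher in macrophages, and Cd9 did not pass. Against B-like cells, uptake receptors had 4 of 7 higher, including Axl (252 and 233 against 0 and 16.8). Of LXR partners and targets, Arl4c (250 and 262 against 19.8 and 25.2) and Mylip (97.2 and 136 against 35.7 and 75.5) were higher, while the desaturase genes Scd1 (3.42 and 0.874 against 111 and 285) and Scd2 (4.03 and 4.63 against 47.6 and 58.8) were lower. Fabp4 was lower too, but its B-like UMIs came from the 12-week library alone (176 CPM, against 0 at 1 week). It was the lower one of the fatty acid carriers, of which 1 of 6, the acyl-CoA synthetase gene Acsl1 (68.8 and 84.7 against 15.9 and 16.8), was higher. Droplet turnover had 3 of 9 higher, Soat1, which esterifies cholesterol (81.8 and 135 against 15.9 and 25.2), Hilpda (75.5 and 71.3 against 0 and 50.4) and Plin3 (43.0 and 48.9 against 11.9 and 25.2), and 1 lower, the lipase gene Mgll (0.964 and 2.62 against 0 and 75.5). Fatty acid oxidation had 1 of 6 higher, Ucp2 (700.4 and 978 against 83.3 and 159). Nr1h2, which encodes the other LXR, did not pass (log2 difference 1.28, edgeR adjusted p 0.249).

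Apoe in immune cells with low C1q was a small fraction of the macrophage level. At 1 and 12 weeks it stood at 400 (326 to 487) and 1267 (1073 to 1486) CPM in B-like cells, at 177 (57.4 to 413) and 541 (426 to 678) in T-like cells and at 114 (58.7 to 199) and 468 (380 to 570) in dendritic-like cells. All 53 and 100 low-C1q cells given an immune class together had 420 (359 to 488) and 831 (755 to 913). A UMI of Apoe was found in 16 of 29 and 26 of 30 B-like cells and in 6 of 11 and 24 of 24 dendritic-like cells, whose median depths were 5671, 3101, 10359 and 8666 UMIs. In each of these classes the value was higher in the 12-week library, where macrophages stood at 1.14 times their 1-week level. A few cells carried much of it: the top 3 B-like cells held 57.4% and 57.0% of the class's Apoe UMIs, with 30, 16 and 12 UMIs at 1 week and 52, 23 and 11 at 12 weeks. Cells with markers of monocytes stood higher, at 2728 and 2821 CPM, but numbered 3 and 5.

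RNA free in the suspension reaches all droplets, and genes from 1 source then keep the ratio of that source. Macrophages had 2.56 and 3.27 Apoe UMIs per C1q UMI. The ratio was 7.21 (4.11 to 13.7) and 16.8 (8.61 to 37.4) in B-like cells, 5.00 (0.559 to 236, on 1 C1q UMI) and 6.91 (3.65 to 14.4) in T-like cells, and 2.40 (0.787 to 8.70) and 8.17 (4.47 to 16.3) in dendritic-like cells. The gate limits C1q in these classes, because it removes cells with 5 or more C1q UMIs from them. Its part in these ratios was not tested. Against Lyz2, which the gate did not use, macrophages had 9.93 and 12.4 Apoe UMIs per Lyz2 UMI and B-like cells 5.94 and 25.2, on 17 and 6 Lyz2 UMIs. Dendritic-like cells, which express Lyz2 themselves (1023 and 806 CPM), had 0.111 and 0.580. The part of free macrophage RNA in the Apoe counts of lymphocytes was not tested.

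**Figure D3:**
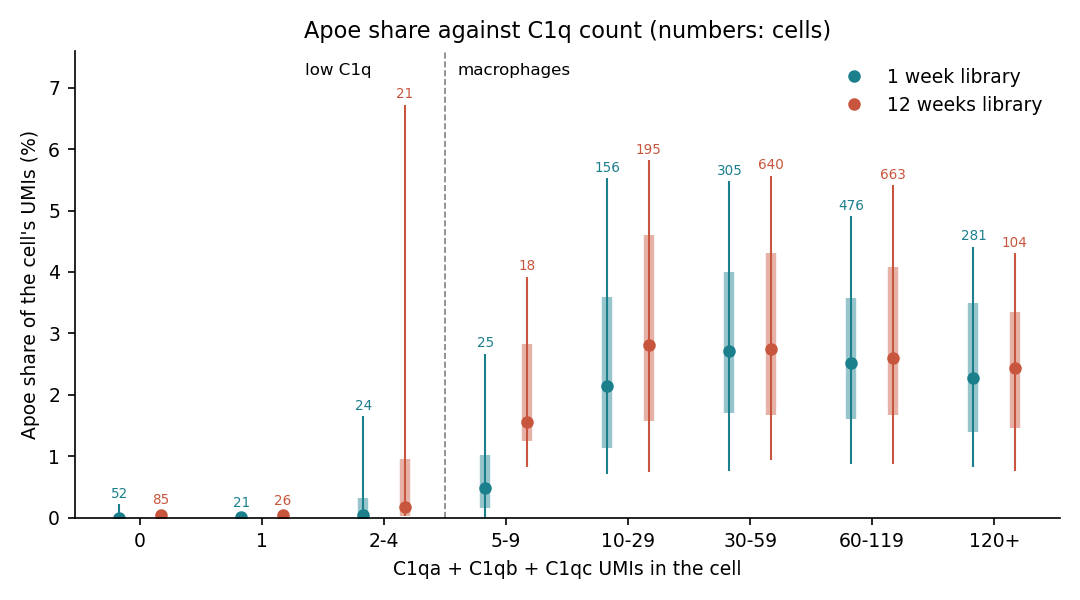
Apoe share of a cell's UMIs (%) by its count of C1qa, C1qb and C1qc UMIs, in all kept cells of the 1-week and 12-week libraries; points are medians, thick bars the middle quartiles, thin lines the 10th to 90th percentiles and numbers the cells. Medians stay under 0.2% below 5 C1q UMIs and lie between 2.14% and 2.82% from 10 C1q UMIs up.

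The Apoe share stepped up across the C1q gate and changed little above it. Among cells with 0 C1q UMIs the median share was 0.00343% at 1 week (52 cells) and 0.0476% at 12 weeks (85 cells). With 10 to 29 C1q UMIs it was 2.14% and 2.82%, and with 120 or more it was 2.27% and 2.44%. Cells with 5 to 9 lay between, at 0.485% (25 cells) and 1.55% (18 cells). Below the gate, 4 cells at 1 week and 5 at 12 weeks had Apoe at 1% of UMIs or more, and none of them carried enough markers for another class. A 1-week cell of 10157 UMIs held 288 Apoe and 58 Lyz2 UMIs with 0 C1q UMIs, where the median macrophage share would give 101. A 12-week cell of 7188 UMIs held 671 Apoe and 87 Lyz2 UMIs with 3 C1q UMIs, where that share would give 62.3. The other 7 ranged from 1190 to 7475 UMIs.

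Across single macrophages most pairs of members were weakly correlated. Over the 15 pairs of the 6 members with a mean of at least 0.2 UMIs in both libraries, the median Pearson r was 0.054 at 1 week and 0.064 at 12 weeks. All gene pairs had medians of 0.002 and 0.001, and their middle 90% ran from -0.075 to 0.086 and from -0.061 to 0.067. The member medians thus lay above those of all pairs and inside the middle 90%. An r of 0.1 or more in both libraries was found for 2 of these 15 pairs, beside 0.937% of the 1802151 pairs among 1899 genes. An r of -0.1 or less in both was found for 0 of the 15, beside 0.469%. The pairs at 0.1 or more were Apoe with Trem2 and Abca1 with Cd36, of which the latter passed narrowly (0.104 and 0.103) and did so in only 1 of 10 alternatives. Apoe with Trem2 reached 0.1 in both libraries in 10 of these 10 alternatives, Apoe with Abca1, which missed it here at 1 week (0.082), in 9, and Apoe with Plin2 in 3. Not all 15 pairs were followed over the alternatives, and the count of 2 changes with the setting. Cells of 1 library share its preparation, and every correlation is a description over 1006 cells at 1 week and 1456 at 12 weeks.

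**Figure D4:**
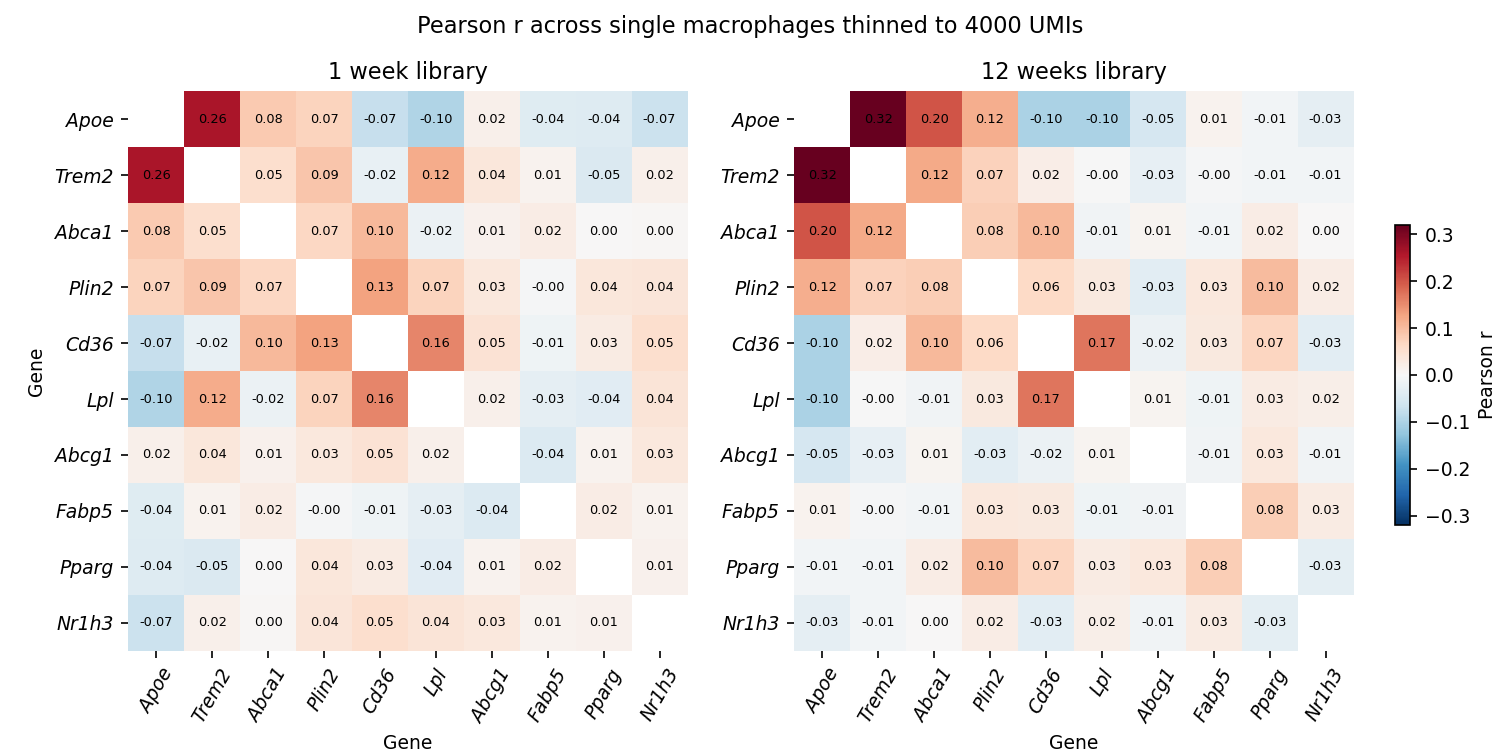
Pearson r between every pair of members across macrophages thinned to 4000 UMIs, in the 1-week (1006 cells, left) and 12-week (1456 cells, right) libraries, coloured from negative (blue) to positive (red). Apoe with Trem2 is the highest pair in both (0.262 and 0.32), and Apoe is negative with Cd36 and Lpl in both.

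Apoe and Trem2 went together. Their r was 0.262 at 1 week and 0.32 at 12 weeks, above the 99th percentile of all pairs (0.149 and 0.121), and 0.397 and 0.524 after division by the part of each variance beyond counting noise. From the lowest to the highest quartile of cells by Apoe, mean Trem2 went from 0.58 through 0.69 and 0.79 to 1.38 UMIs at 1 week and from 0.34 through 0.69 and 0.81 to 1.25 at 12 weeks. Trem2 was detected in 35.7% and 65.3% of the lowest and highest quartiles at 1 week and in 25.3% and 64.0% at 12 weeks. The rise was not particular to Apoe. Over quartiles of cells ranked by Lyz2, mean Trem2 went from 0.42 to 1.35 UMIs at 1 week and from 0.43 to 1.29 at 12 weeks. The part of Lyz2 in the correlation of Apoe with Trem2 was not tested. Macrophages with a Trem2 UMI held 121 Apoe UMIs on average against 90.6 in those without at 1 week, and 144 against 99.5 at 12 weeks.

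Abca1 also followed Apoe at 12 weeks (r 0.202). At 1 week its r with Apoe (0.082) lay below the 95th percentile of all gene pairs (0.086). Mean Abca1 over the quartiles by Apoe went from 0.56 through 0.73 and 0.82 to 0.80 UMIs at 1 week. At 12 weeks it went from 0.63 through 0.84 and 0.97 to 1.29. Over quartiles by Lyz2 it went from 0.58 to 0.86 at 1 week and from 0.67 to 1.31 at 12 weeks. Plin2 had r values of 0.071 and 0.115 with Apoe. Abcg1 went its own way, at 0.016 and -0.054 with Apoe and at 0.013 and 0.009 with Abca1. The difference between the libraries in these values was not tested.

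Cd36 and Lpl formed a second pair, and both were weakly negative with Apoe. Their r was 0.157 at 1 week and 0.171 at 12 weeks, and macrophages with a Cd36 UMI held 2.68 and 4.16 times as many Lpl UMIs as those without (0.352 against 0.131, and 0.191 against 0.046 per cell). Both leaned against Apoe, Cd36 at -0.074 and -0.10 and Lpl at -0.096 and -0.10. The 5th percentile of all gene pairs was -0.075 at 1 week and -0.061 at 12 weeks, so Cd36 at 1 week lay just inside it. Neither gene reached -0.1 with Apoe in both libraries, as 3.11% of all genes did. Over the quartiles by Apoe, mean Lpl went from 0.33 to 0.12 UMIs at 1 week and from 0.17 to 0.07 at 12 weeks, and mean Cd36 from 1.10 to 0.73 and from 1.29 to 0.76. Cd36 with Trem2 was near 0 (-0.025 and 0.022). Lpl with Trem2 was positive at 1 week (0.117) and near 0 at 12 weeks (-0.001). Abca1 with Cd36, at 0.104 and 0.103, ran from 0.011 to 0.136 at 1 week and from 0.052 to 0.118 at 12 weeks over the alternatives. The lowest 1-week value came without macrophages that held 2 or more UMIs of B, T or dendritic cell markers. The values for Fabp5, Pparg and Nr1h3 with the other members lay between -0.070 and 0.101, on few counts. Pparg was 1.76 and 1.61 times as high in macrophages with a Fabp5 UMI as in those without (0.182 against 0.103, and 0.313 against 0.194 per cell).

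**Figure D5:**
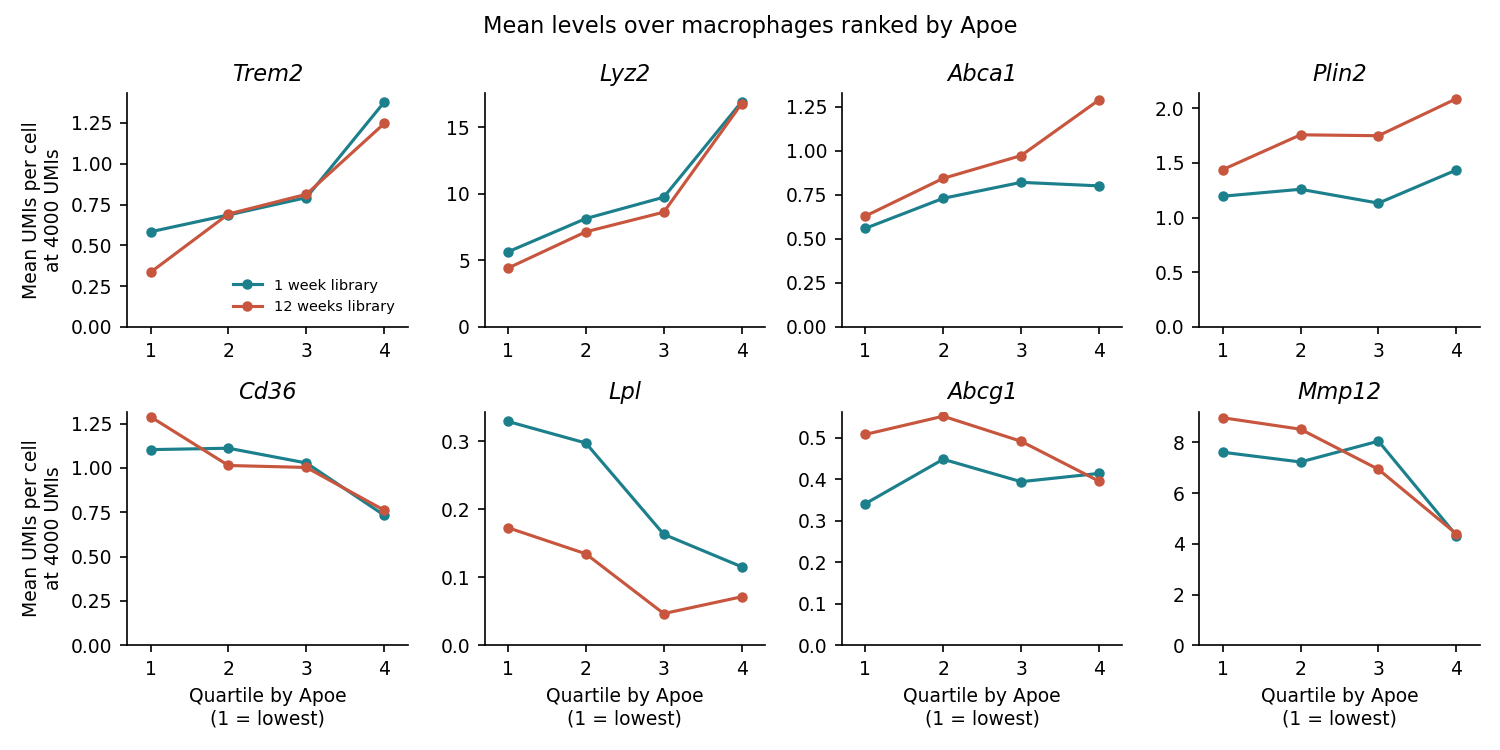
Mean UMIs per macrophage at 4000 UMIs for 6 members and for Lyz2 and Mmp12 over quartiles of cells ranked by Apoe (251 or 252 cells each at 1 week, 364 at 12 weeks). Trem2, Lyz2 and Abca1 are higher, and Cd36, Lpl and Mmp12 lower, in the highest than in the lowest quartile of both libraries.

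The genes most like a member were sought for members with a mean of at least 0.5 UMIs in both libraries. Candidate genes had a mean of at least 0.2 UMIs in both and were ranked by the lower of the 2 r values. For Apoe the closest was Lyz2, lysozyme (0.453 and 0.516), then Trem2, the endotoxin co-receptor Cd14 (0.25 and 0.206), Selenop, a secreted selenium carrier (0.201 and 0.213), and Itm2b (0.260 and 0.182). Mean Lyz2 went from 5.65 to 16.9 UMIs over the quartiles by Apoe at 1 week and from 4.42 to 16.8 at 12 weeks. On the opposite side stood ribosomal protein genes, such as Rpsa (-0.333 and -0.291), and the cytoskeletal genes Tmsb4x (-0.312 and -0.216) and Actb (-0.256 and -0.207). For Trem2 the closest were Lyz2 (0.289 and 0.284), the lysosomal proteases Ctsd (0.343 and 0.281) and Ctsb (0.231 and 0.203), Apoe, and its signalling partner Tyrobp (0.236 and 0.175). Opposite to it stood the elastase gene Mmp12 (-0.155 and -0.127), then the ribosomal protein genes Rps20 (-0.105 and -0.126), Rps24 (-0.123 and -0.103) and Rpl39 (-0.110 and -0.101), and Cd207 (-0.094 and -0.102).

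For Cd36 the closest were Ctsb (0.237 and 0.220), Mmp12 (0.262 and 0.180), Basp1 (0.202 and 0.176), Stap1 (0.195 and 0.174) and Lipa (0.171 and 0.216). Mmp12 thus stood on opposite sides of Cd36 and Trem2. It was 1.65 and 1.53 times as high in macrophages with a Cd36 UMI as in those without, and 0.639 and 0.709 times as high in those with a Trem2 UMI. For Abca1 the closest were Cd14 (0.205 and 0.164) and Ctsb (0.186 and 0.137). For Plin2 they were Ctsb (0.189 and 0.185), Ctsd (0.199 and 0.144), Ubb (0.143 and 0.153), the metallothionein gene Mt1 (0.139 and 0.178) and Hsp90aa1 (0.133 and 0.144). Macrophages holding 2 or more UMIs of B, T or dendritic cell markers numbered 335 and 386. Leaving them out was 1 of the alternatives. Over the main setting and all alternatives, Apoe with Trem2 ran from 0.203 to 0.305 at 1 week and from 0.242 to 0.338 at 12 weeks.

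Of the 72 other lipid genes, 24 had a mean of at least 0.2 UMIs in both libraries. At r of 0.1 or more in both, Trem2 had 5 of them (Ctsd, Ctsb, Cd63, Npc2 and Tyrobp) beside 0.896% of all genes, Cd36 had 4 (Lipa, Cd68, Cd63 and Ctsb) beside 1.79%, Plin2 had 3 (Ctsd, Cd63 and Ctsb) beside 1.00%, and Apoe had 2 (Ctsd and Ctsl) beside 1.26%. Abca1 had Ctsb beside 0.580% and Abcg1 had Lgals3 beside 0.316%. Ctsb, a lysosomal protease, was thus a partner of 4 of the 6 members.

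Cell state moved with some members. The summed NRF2 genes of the antioxidant response had r values of 0.214 and 0.190 with Cd36 and 0.135 and 0.167 with Plin2. Plin2 also stood at 0.193 and 0.126 with immediate early genes. The summed C1q genes stood at 0.163 and 0.115 with Trem2 and at 0.041 and -0.005 with Apoe. Cell cycle genes stood at -0.187 and -0.091 with Apoe. Ribosomal protein genes were negative with Apoe (-0.179 and -0.223), Cd36 (-0.268 and -0.248) and Abca1 (-0.178 and -0.248). A cell's UMIs before thinning stood at -0.097 and -0.084 with Apoe and at 0.035 and 0.001 with Trem2. The part of these states in the pairs above was not tested.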

How the data were processed

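Raw UMI counts per gene and barcode were deposited by the authors for 2 libraries. Reads were counted with Cell Ranger on mm10, per the submitters' processing notes, and the matrices carry software version 3.1.0, per the file headers. The way cell barcodes were called is not stated in those sources.

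Barcodes under 500 genes, under 1000 UMIs or over 10% mitochondrial UMIs were removed. Doublets were not called. The macrophage gate was 5 or more C1q UMIs (C1qa, C1qb, C1qc). Other cells took the class with the most marker UMIs, at least 3. The members, marker lists, gene lists and rules were chosen with earlier results of these data known. Named genes were the 10 members, the genes of the 7 pathway lists, and the 5 genes most like and most opposite to each member with a mean of at least 0.5 UMIs. Mmp12 and Cd207 were followed as such.

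Cells were thinned to 4000 UMIs (Python 3.11.15, numpy 2.4.6) for shares, variances and Pearson correlations. Counts summed per library and class were tested with edgeR 4.0.16 (TMM, filterByExpr, quasi-likelihood, library as a block, Benjamini-Hochberg at 0.05) in R 4.3.3, with DESeq2 1.42.0 as an alternative. A minimum of 15 cells per class and library left B-like cells as the only comparison class, and the fit with 9 or more cells was added after the data were seen. With the library as a block, p-values rest on how the difference between classes varied over 2 pools of mice that also differ in time label. In the fit against B-like cells this spread was drawn from all genes together. Its p-values therefore do not measure the spread of a single gene between pools. The scripts were tested on simulated data, where the fit against B-like cells missed most of the smaller changes. A gene that did not pass was not shown to be equal. Gene positions came from GENCODE on GRCm38.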

Additional observations from a re-analysis of the deposited data

Results flagged for a closer look

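Nr1h3, which encodes LXR alpha, differed in direction between the libraries when macrophages were set against dendritic-like cells. The ratio of macrophages to dendritic-like cells was 0.176 at 1 week (interval 0.0659 to 0.662) and 1.54 at 12 weeks (interval 0.269 to 61.5). It rested on 4 UMIs in 1 of 11 dendritic-like cells at 1 week and on 1 UMI in 24 cells at 12 weeks. The difference between the libraries was not tested.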

How the results depend on the processing

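The count of genes higher and lower in macrophages than in the other classes was 1300 and 416. It was 452 and 196 with DESeq2, 706 and 272 with T- and dendritic-like cells added, 21 and 54 with no upper limit on C1q in the other classes, 1353 and 326 without a filter on low counts, 1320 and 419 without hormone-rich cells, and 1157 and 400 without the library as a replicate block. The block moved no member across the threshold. Fewer genes were tested with more classes (2975 against 10046). The cause of the other changes was not tested. Fabp5 was the member that reversed, at -0.87 with T- and dendritic-like cells added. Leaving out each library in turn gave log2 differences of 5.20 to 6.12 for Apoe, 1.66 to 3.08 for Abca1 and 0.81 to 1.35 for Abcg1. No paired analysis was possible between the time labels because each has 1 library. The correlation of Apoe with Trem2 at 1 week (0.262) was 0.217 on log2(count + 1), 0.203 at 2000 UMIs and 0.305 without the 10% of macrophages with the most UMIs, and at 12 weeks (0.32) it was 0.242 at 2000 UMIs. The moves of levels and correlations were set against the SD of the 2 libraries' main values. Of the alternatives for levels 87 moved by no more than this SD and 13 by more, and for correlations 129 and 71. Apoe with Cd36 (-0.131 to -0.034) and with Lpl (-0.133 to -0.060) stayed negative over those run. Depth limits Nr1h3, and in single cells Fabp5, Pparg and Lpl.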
